A study of Rattus norvegicus with 18 samples.

Results

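The genes described here encode potassium channels, taken as every probe set of the array whose single gene symbol in the platform annotation begins with Kcn. There were 82 such probe sets, for 54 genes, among the 8740 probe sets of the array that are not controls, which name 4736 genes by a single symbol. The tissue was the suprachiasmatic nucleus (SCN), the hypothalamic nucleus that holds the central circadian clock, from adult male Long-Evans rats with no genetic modification named in the labels. All rats were entrained to alternating light and darkness and then kept in constant darkness. From the first projected lights-on, called circadian time (CT) 0, rats were taken every 6 h, and the pools analysed here were those of 0, 6, 12, 18, 24, 30, 36 and 42 h. The second day of sampling (24 to 42 h) thus revisited the same 4 circadian times as the first (0 to 18 h). The RNA of 5 rats was pooled per time point, so that 1 pool stood for each time and the spread between rats cannot be seen. Each pool was read on the rat U34 GeneChip (array A), on which a gene is read by sets of short oligonucleotide probes, in a technical repeat of 8 arrays and in a first run of 10 arrays, in which the pools of 24 h and 36 h had a pair of arrays each, marked a and b. That both arrays of a pair read the same pool was assumed.

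Potassium channels let potassium leave the cell and so repolarise the membrane, end action potentials and set the resting potential. Voltage-gated channels of the Kv families open on depolarisation, calcium-activated channels open when calcium enters, inward rectifiers of the Kir family hold the resting potential, and two-pore channels carry a leak current. In the SCN of rodents, neurons fire faster by day than by night. A-type currents carried by Kv4 channels, fast delayed rectifier currents carried by Kv3 channels and calcium-activated BK currents are among the currents studied for their part in that daily cycle.

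The promoter sequences of the pair of genes whose probe sets are compared most closely below are shown first, from the RefSeq promoter table on build GRCr8. Each is read 5′ to 3′ on the gene's own strand, with the 250 bases before the start of the gene in lower case and the 50 bases after it in capitals. Kcnd3 lies on the plus strand at chr2:195626066-195626365 and Kcnj16 on the plus strand at chr10:96517074-96517373.
Kcnd3: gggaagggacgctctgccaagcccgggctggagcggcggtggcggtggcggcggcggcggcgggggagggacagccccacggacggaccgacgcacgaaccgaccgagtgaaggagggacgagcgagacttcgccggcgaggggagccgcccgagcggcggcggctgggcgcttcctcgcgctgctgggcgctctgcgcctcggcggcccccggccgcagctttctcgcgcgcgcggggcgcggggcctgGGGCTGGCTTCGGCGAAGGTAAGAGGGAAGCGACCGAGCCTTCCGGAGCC
Kcnj16: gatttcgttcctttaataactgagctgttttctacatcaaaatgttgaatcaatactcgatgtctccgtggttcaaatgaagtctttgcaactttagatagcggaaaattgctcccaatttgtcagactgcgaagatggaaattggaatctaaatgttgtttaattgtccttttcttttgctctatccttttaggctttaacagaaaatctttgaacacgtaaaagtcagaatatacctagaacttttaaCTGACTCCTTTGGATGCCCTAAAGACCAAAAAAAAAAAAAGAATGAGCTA
The windows differ in base composition: 77.7% of the bases are G or C in the Kcnd3 window and 34.0% in the Kcnj16 window, beside a median of 62.0% over the 40 potassium channel genes that matched the table and 51.7% over all promoters in it. Neither window holds any of the 4 clock-related motifs searched on both strands: the E-box CACGTG, the D-box TTATGTAA, the cAMP response element TGACGTCA and the element TAGGTCA bound by ROR and REV-ERB receptors.

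Among the 40 promoters, only the E-box was found, in 2 of them, while 6.42% of all 33469 promoters of the table hold it. None of these 40 windows held the D-box, which 0.893% of all promoters hold, the cAMP response element (1.83%) or the ROR and REV-ERB element (2.63%). The remaining potassium channel genes of the 54, among them Kcna1, Kcng1 and Kcnn1, had no window in the promoter table and were not searched. The promoters with an E-box are those of Kcnh4, a voltage-gated channel of the ELK group, at chr10:86188427-86188726 on the minus strand, and Kcnk5, a two-pore channel opened by alkaline pH, at chr15:4171375-4171674 on the plus strand. They are printed with the E-box in capitals.
Kcnh4: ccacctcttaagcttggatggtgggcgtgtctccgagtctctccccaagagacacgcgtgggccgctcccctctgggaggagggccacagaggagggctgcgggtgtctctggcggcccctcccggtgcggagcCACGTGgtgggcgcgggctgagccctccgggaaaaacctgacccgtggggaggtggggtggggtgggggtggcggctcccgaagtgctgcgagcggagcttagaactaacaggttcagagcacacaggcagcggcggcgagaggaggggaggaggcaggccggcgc
Kcnk5: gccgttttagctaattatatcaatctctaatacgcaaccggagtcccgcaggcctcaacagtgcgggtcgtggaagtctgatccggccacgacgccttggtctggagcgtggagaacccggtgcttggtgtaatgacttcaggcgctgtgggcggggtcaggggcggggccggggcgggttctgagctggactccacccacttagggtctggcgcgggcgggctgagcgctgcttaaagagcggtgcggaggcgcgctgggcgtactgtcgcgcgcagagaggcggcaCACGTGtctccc
The E-box begins 116 bases before the start of Kcnh4 and at the 39th base after the start of Kcnk5. A match of letters is a description of the window and says nothing of binding. The Kcnh4 probe set had a fitted amplitude of 0.16 ± 0.09 (log2 scale, SE, n = 8 pools) peaking at CT 4.52 (adjusted p = 0.798, limma). The Kcnk5 probe set lay below the level filter described next and was not tested.

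The tests were limited to probe sets brighter, on average over the pools, than the median non-control probe set, which corresponds to a geometric mean intensity of 121. Of the 82 potassium channel probe sets, 26 passed (31.7%), for 22 genes, and 56 did not, so that 32 genes had no tested probe set. A probe set below the filter may be dim because its RNA is scarce or because its probes bind weakly, and the levels of different probe sets are not compared. Of the 82, 23 had a geometric mean below 2 times the floor of 12.1 intensity units, and 10 were at or under the floor on at least 9 of the 18 arrays. A Kcnk3 probe set, rc_AA925138_s_at, was at or under the floor on all 18 arrays.

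Tested probe sets came from every subfamily on the array other than Kv2, the KCNE subunits and Slack. The voltage-gated alpha subunits gave 17 of 41 probe sets and 14 of 27 genes. Among them, the Shaker-type Kv1 family gave 3 of 10 probe sets (Kcna1 and Kcna4), and the fast-spiking Kv3 family gave 3 of 6, with all 3 of its genes on the array (Kcnc1, Kcnc2 and Kcnc4). The A-type Kv4 family gave 3 of 5, with both Kcnd2 and Kcnd3, and the EAG, ERG and ELK group gave 6 of 11 (Kcnh1, Kcnh2, Kcnh3, Kcnh4 and Kcnh6). Kcnq3, a subunit of the M current, was tested by 1 of the 3 Kv7 probe sets, and Kcng1, a silent subunit that alters Kv2 channels, by 1 of the 5 silent-subunit probe sets. Kcnb2, the only Kv2 gene, was below the filter.

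Among the other classes, 5 of 22 inward rectifier probe sets passed, for Kcnj1, Kcnj11, Kcnj14 and Kcnj16, while 11 inward rectifier genes had none. These 11 include Kcnj10, the glial partner of Kcnj16, and Kcnj3, Kcnj5, Kcnj6 and Kcnj9, the subunits of G protein-gated channels. The calcium-activated class was represented by Kcnn1, a small-conductance SK channel, and by Kcnmb1, an accessory beta subunit of BK channels. All 4 probe sets of Kcnma1, the pore of the BK channel, were below the filter. Kcnab2, a cytoplasmic beta subunit of Kv1 channels, and Kcnk1, a two-pore channel, were the remaining tested genes, and neither probe set of the accessory subunit Kcne1 passed.

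**Figure D1:**
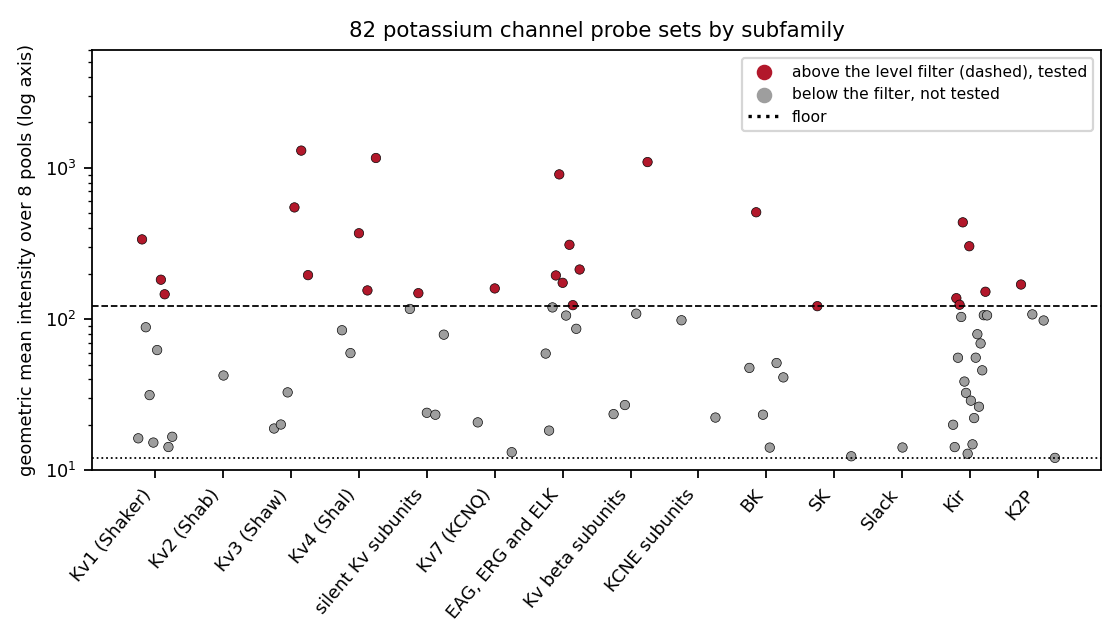
Geometric mean intensity over the 8 pools (log axis) of each of the 82 potassium channel probe sets, by subfamily, with red points for the 26 tested probe sets, grey points for the 56 below the level filter (dashed line, 121) and the floor of 12.1 as a dotted line. Most subfamilies have points on both sides of the filter, and Kv2, the KCNE subunits and Slack have none above it.

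The question of the time course was whether a probe set followed a 24 h cycle, tested with limma's moderated F test of a cosine and a sine over the 8 pools. The p-values measure the spread between pools, with 1 pool per time, and the number of arrays limits the precision. In tissue RNA, fewer cells of a type and less RNA per cell cannot be told apart. No potassium channel probe set passed at a Benjamini-Hochberg adjusted p of 0.05 over all 4370 tested probe sets, of which 0 (0%) passed. At an unadjusted p of 0.05, 5 of the 26 potassium channel probe sets passed (19.2%), beside 278 (6.36%) of all tested probe sets. They were probe sets of Kcnd3, Kcnj16, Kcna1, Kcng1 and Kcnn1. With no level filter the share was 6 of 82 (7.32%), beside 569 of 8740 (6.51%), and the lowest adjusted p of a potassium channel probe set was 0.614. That count of 5 fell to 2 of 24 without the 3 first-run arrays of 12, 18 and 36 h (array b), whose hybridisation controls were high. In that alternative the 12 h and 18 h pools came from the technical repeat alone, so that differences in level between runs enter its values. The count was 2 of 26 without the 0 h pool, 2 of 24 without the 12 h pool, and 0 of 7 with the filter at the 75th percentile. It was 3 when the arrays were quantile normalised, when they were scaled to the same median and with limma's trend and robust setting. It was also 3 with arrays a left out and without the 6, 24 or 36 h pool. The runs alone gave 1 of 27 (technical repeat) and 2 of 30 (first run). With a constant of 16 added in place of the floor the count was 4 of 24, and with the floor at the 25th percentile 4 of 25.

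The fitted peaks were spread around the day. Of the 26 tested probe sets, 6 peaked nearest CT 0, 4 nearest CT 6, 8 nearest CT 12 and 8 nearest CT 18, or 23.1%, 15.4%, 30.8% and 30.8%. The shares among all tested probe sets were 26.3%, 21.1%, 28.0% and 24.6%. The 17 voltage-gated probe sets divided as 4, 4, 5 and 4 over the same circadian times. Fitted amplitudes ran between 0.06 and 0.76 on the log2 scale, with a median of 0.18, beside a median of 0.16 over all tested probe sets. The largest amplitude was that of a Kcnd3 probe set and the smallest that of Kcnab2. Since no adjusted p passed, these peaks describe fitted curves and not established rhythms.

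**Figure D2:**
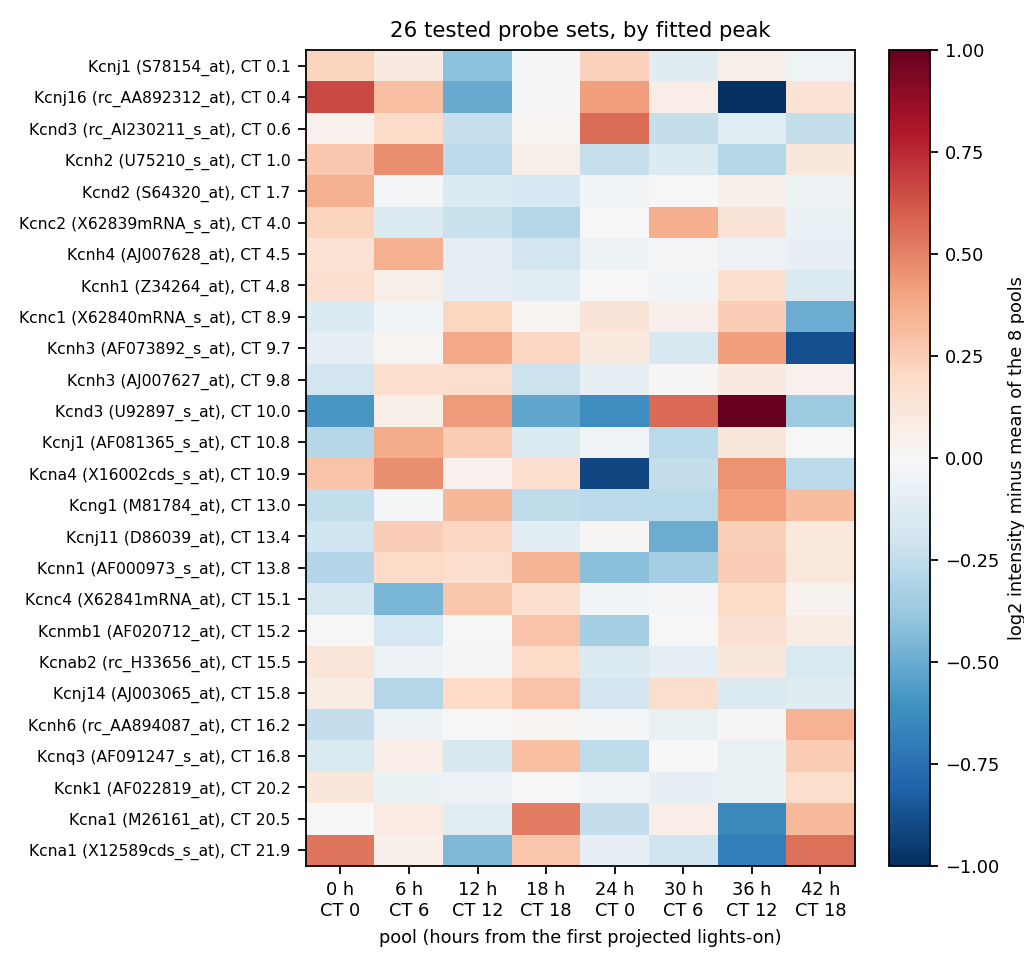
Log2 intensity minus the mean of the 8 pools for the 26 tested potassium channel probe sets (rows, ordered by fitted peak, given as CT beside each name) in each pool (columns, by hours and CT), with the colours limited to 1 unit either way. The deepest colours lie in the rows of Kcnj16 (low at 36 h), Kcnd3 U92897_s_at (high at 36 h), Kcna4 (low at 24 h) and Kcnh3 AF073892_s_at (low at 42 h).

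Kcnd3 encodes a pore subunit of the A-type Kv4 current, which activates below the spike threshold and slows repetitive firing. Its probe set U92897_s_at had intensities of 103.3, 161.6, 208.1 and 108.1 at 0, 6, 12 and 18 h and of 100.9, 229.8, 314.4 and 120.4 at 24, 30, 36 and 42 h. On both days the pool of CT 12 was the highest and that of CT 6 the next, and both pools of CT 12 lay above all pools of CT 0 and CT 18. The fitted amplitude was 0.76 ± 0.12 (log2 scale, SE, n = 8 pools), peaking at CT 10.0. The adjusted p of limma's test was 0.308 and the exact permutation test gave p = 0.0127, beside a smallest reachable p of 0.00317. The daily course was smaller in the technical repeat than in the first run. Over the 8 pools the technical repeat read 168.3, 194.5, 137.7, 134.4, 123.1, 212.1, 354.7 and 125.6, with a fitted amplitude of 0.45, peaking at CT 8.92. The first run read 63.4, 134.2, 314.5, 87.0, 82.7, 249.0, 278.8 and 115.4, with an amplitude of 1.10, peaking at CT 10.5. The 12 h pool was thus the highest of the first run, on an array with high hybridisation controls, and not raised in the technical repeat, while the 36 h pool was high in both.

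The 24 h value of U92897_s_at in the first run joins unlike readings, 24.1 on array a and 283.6 on array b, beside 123.1 in the technical repeat. With arrays a left out the amplitude was 0.61 and with arrays b left out 0.93. Without the arrays with high hybridisation controls it was 0.56, peaking at CT 9.86, and the adjusted p was 0.743 in limma's test.

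The other Kcnd3 probe sets did not follow this course. Intensities of rc_AI230211_s_at were 1196, 1321, 990.9 and 1187 on the first day and 1711, 987.7, 1072 and 985.9 on the second. Its highest pool was that of 24 h, for which array a read 1047, array b 2976 and the technical repeat 1658. The fitted amplitude was 0.24 ± 0.12, peaking at CT 0.629 (adjusted p = 0.775, limma), and was 0.11 without the 24 h pool. The third probe set, M74898cds_s_at, lay below the filter, with 77.3, 72.4, 51.9 and 45.2 on the first day and 63.2, 77.6, 60.5 and 41.0 on the second. Averaged over the runs, its lowest pools on both days were those of CT 18, and its fitted amplitude was 0.43, peaking at CT 4.55. The runs of this probe set correlated at r = -0.45. The technical repeat was lowest on the first day at 6 h (26.8), where the first run was highest (195.5). The first run was lowest on the second day at 36 h (85.9, beside 101.8 at 42 h).

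In pairs over the 8 pools, U92897_s_at and rc_AI230211_s_at ran in opposite directions, with Pearson's r = -0.54 (exact permutation p = 0.164) and Spearman's rho = -0.57 (exact permutation p = 0.151). Without the 2 pools farthest from the median r was -0.53, and the fitted peaks were 9.39 h apart. The negative sign was seen in each run alone, at -0.48 in the technical repeat and -0.50 in the first run. M74898cds_s_at correlated with rc_AI230211_s_at at r = 0.27 (0.15 in the technical repeat, 0.58 in the first run, 0.11 without 2 pools). With U92897_s_at its r was 0.20, and the sign was not stable (0.39 in the technical repeat, -0.25 in the first run, -0.32 without 2 pools). Adjusted over the 35 pairs of the family, the p of r for the opposing pair was 0.896.

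Kcnj16 encodes an inward rectifier subunit that joins the glial channel Kcnj10 and makes it sensitive to pH. Its probe set rc_AA892312_at had intensities of 239.2, 186.7, 107.1 and 150.3 at 0, 6, 12 and 18 h and of 202.4, 158.7, 72.8 and 166.7 at 24, 30, 36 and 42 h. The pool of CT 12 was the lowest and that of CT 0 the highest on both days, and neither overlapped the pools of another circadian time. The fitted amplitude was 0.66 ± 0.12 (log2 scale, SE, n = 8 pools) peaking at CT 0.351. The adjusted p was 0.355 in limma's test and the exact permutation p was 0.00635. The low values at CT 12 came from a different run on each day. At 12 h the technical repeat read 198.9 and the first run 57.7, on an array with high hybridisation controls. At 36 h the technical repeat read 27.1 and the first run 196.1 on array a and 194.8 on array b. The other 6 pools lay between 130.9 and 220.4 in the technical repeat and between 172.5 and 305.0 in the first run.

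The fitted peaks of Kcnj16 rc_AA892312_at were close in the runs, at CT 0.469 in the technical repeat and CT 0.202 in the first run. Its values over the 8 pools nevertheless correlated between runs at r = -0.16 (exact permutation p = 0.4996) and rho = -0.12 (exact permutation p = 0.793), with r = -0.07 without 2 pools. Without the arrays with high hybridisation controls the amplitude was 0.45, peaking at CT 0.951 (adjusted p = 0.909, limma). The second probe set, X83581cds_at, lay below the filter, with 86.4, 101.5, 36.9 and 88.5 on the first day and 63.3, 83.7, 54.9 and 62.0 on the second. In the mean of the runs its lowest pool on each day was again that of CT 12. The 36 h value joins 18.3 on array a, 138.6 on array b and 59.9 in the technical repeat, whose lowest pool of that day was 42 h (50.4). The 12 h value joins 61.7 in the technical repeat and 22.1 in the first run, again on the array with high hybridisation controls. The probe sets correlated at r = 0.62 (exact permutation p = 0.105) and rho = 0.52 (exact permutation p = 0.197), with fitted peaks 1.24 h apart, and r was -0.01 without the 2 pools farthest from the median.

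Cell type markers were read beside these courses. The 7 tested oligodendrocyte markers had a median difference of -0.31 on the log2 scale between CT 12 and CT 0, with 4 of 7 lower, and summed intensities of 33690 to 37571 at CT 12 and 37567 to 37749 at CT 0. The 4 tested pan-neuronal markers were all lower at CT 12, with a median of -0.34 and sums of 5991 to 6671 at CT 12 and 7599 to 8887 at CT 0. The 8 tested astrocyte markers had a median of 0.09, with 4 of 8 lower, and sums of 45380 to 46583 at CT 12 and 40817 to 43225 at CT 0. Gja1, near the floor at 12.3, lay below the filter and was not one of these 8. Markers of neighbouring hypothalamic neurons had a median of -0.05, with 4 of 7 lower at CT 12, and sums of 5086 to 6223 at CT 12 and 5733 to 6291 at CT 0. Among them Pmch, the neuropeptide of the lateral hypothalamus, had the largest CT 12 minus CT 0 difference of the 7, at -0.90, with a fitted amplitude of 0.60 peaking at CT 21.2. Pomc (0.23), Trh (0.22) and Gal (0.09) were higher at CT 12, with fitted peaks at CT 6.85, CT 15.8 and CT 17.1. Choroid plexus and ependymal markers had a median of 0.03, with 2 of 4 lower, and sums of 6445 to 7589 at CT 12 and 6137 to 8709 at CT 0, and Ttr among them had an amplitude of 1.02 peaking at CT 6.12. The medians were 0.18 for 3 vessel markers, -0.03 for 4 microglial markers and 0.07 for 2 blood markers. The part of such differences in the low Kcnj16 and Kcna1 values at CT 12 was not tested. Of the SCN neuron markers, Avp read 1732, Vip at 49.0 and Lhx1 at 14.9 lay below the filter, and the median of the 6 tested ones was 0.14.

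**Figure D3:**
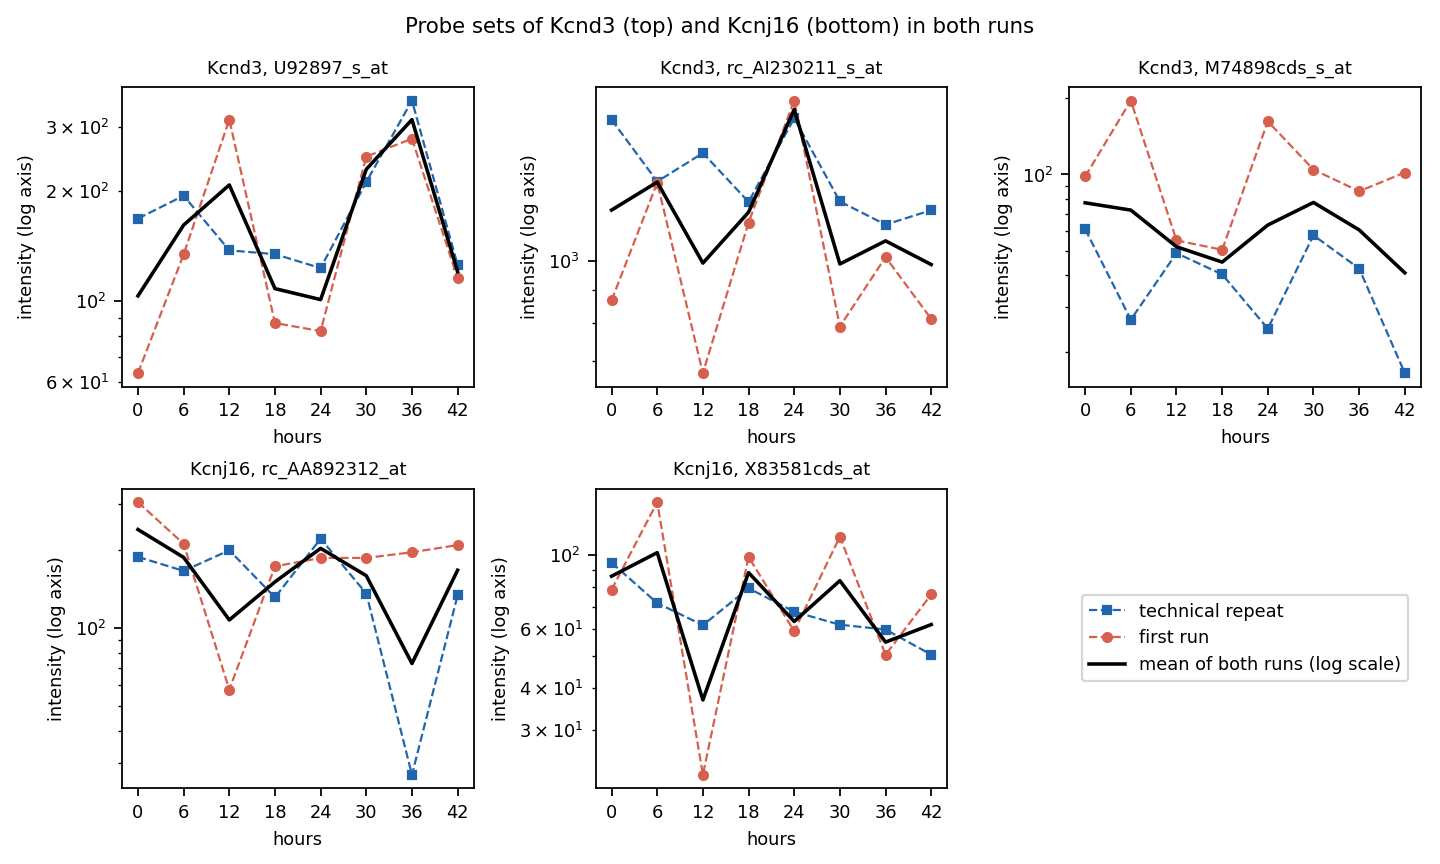
Intensity (log axes) over hours from the first projected lights-on for the 3 Kcnd3 probe sets (top) and the 2 Kcnj16 probe sets (bottom), as 1 value per pool in the technical repeat (blue squares), in the first run (red circles, arrays a and b averaged) and as the mean of both runs on the log scale (black). The Kcnd3 probe sets peak at different hours, and the low points of Kcnj16 rc_AA892312_at at 12 h and 36 h come from 1 run each.

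Kcna1 encodes a Kv1 delayed rectifier subunit found in axons. Its probe set X12589cds_s_at read 264.1, 188.6, 133.6 and 220.9 on the first day and 172.0, 159.0, 112.9 and 267.5 on the second. The lowest pool of both days was that of CT 12, and the highest was CT 0 on the first day and CT 18 on the second. The amplitude was 0.47 ± 0.14, peaking at CT 21.9 (adjusted p = 0.746 in limma's test, exact permutation p = 0.105). It was 0.21 in the technical repeat alone, 0.74 in the first run alone and 0.27 without the arrays with high hybridisation controls, array b of 36 h having read 39.6 beside 185.8 on array a and 148.5 in the technical repeat. The second Kcna1 probe set, M26161_at, read 337.0, 357.0, 312.0 and 479.3 on the first day and 284.9, 352.9, 215.9 and 421.5 on the second. In the mean of the runs CT 18 was the highest pool and CT 12 the lowest on both days, and its amplitude was 0.21 ± 0.15, peaking at CT 20.5. CT 18 was also the highest in each run. The lowest first-day pool was 6 h in the technical repeat (197.9, beside 225.9 at 12 h) and 0 h in the first run (399.0, beside 430.8). The first-run readings of 18 h (768.8) and array b of 36 h (223.5, beside 390.1 on array a) came from arrays with high hybridisation controls. The Kcna1 pair correlated at r = 0.75 (exact permutation p = 0.0283, adjusted over the 35 pairs 0.739) and rho = 0.71 (exact permutation p = 0.0576), and r was 0.60 without 2 pools. In each run alone r was 0.70 in the technical repeat and 0.63 in the first run.

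Of the remaining voltage-gated members, Kcng1 M81784_at read 125.5, 147.4, 186.6 and 124.3 on the first day and 123.8, 123.2, 196.9 and 183.4 on the second. Its highest pool on both days was that of CT 12, and the amplitude was 0.32 ± 0.11, peaking at CT 13.0 (adjusted p = 0.746, limma). Without the arrays with high hybridisation controls the amplitude was 0.18, peaking at CT 10.5. That fit took 12 h and 18 h from the technical repeat alone, in which Kcng1 read lower (log2 difference -0.52). In the technical repeat CT 12 was the highest pool on neither day, with 132.4 at 12 h beside 133.0 at 6 h and 169.6 at 36 h beside 192.7 at 42 h. Kcnc4 X62841mRNA_at, for a fast-inactivating Kv3 channel, read 174.8, 142.0, 236.3 and 218.1 on the first day and 191.7, 193.1, 223.0 and 200.6 on the second. Its mean of the runs was highest at CT 12 on both days, with an amplitude of 0.23 ± 0.10, peaking at CT 15.1 (adjusted p = 0.775, limma). The technical repeat was instead highest at CT 18 on both days, with 262.0 and 230.8, and the first run read 304.4 at 12 h and 308.4 on array b of 36 h, both arrays with high hybridisation controls. Without those arrays the fitted peak was at CT 17.4. Kcna4 X16002cds_s_at, for a fast-inactivating Kv1 channel, read 178.2, 201.0, 150.0 and 163.7 on the first day and 77.7, 124.0, 199.5 and 121.9 on the second. Its highest pool was CT 6 on the first day and CT 12 on the second, and its amplitude of 0.29 ± 0.19 peaked at CT 10.9. The other tested Kv3, EAG, ERG and ELK, and Kv7 probe sets had amplitudes of at most 0.24. Among these, Kcnc1 peaked at CT 8.88 and Kcnq3 at CT 16.8.

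Kcnn1 AF000973_s_at, the SK channel probe set, read 99.3, 139.2, 137.5 and 154.0 on the first day and 91.0, 96.4, 144.3 and 130.8 on the second. Averaged over the runs, CT 0 was the lowest on both days and the highest pool was CT 18 on the first day and CT 12 on the second. Neither run alone had CT 0 lowest on both days. The first run was lowest at 18 h on the first day (132.8, beside 162.3 at 0 h). The technical repeat was lowest at 42 h on the second (103.3, beside 128.0 at 24 h). At 24 h array a read 37.9 and array b 110.5. The amplitude was 0.32 ± 0.11, peaking at CT 13.8 (adjusted p = 0.746, limma), while the runs correlated at r = -0.40 (exact permutation p = 0.337) and rho = -0.64 (exact permutation p = 0.0962), and r was -0.77 without 2 pools. With a geometric mean of 122 it lay just inside the level filter, and Kcnh5 at 119.5 lay just outside it. For the inward rectifier Kcnj1, a renal-type channel, S78154_at read 353.3, 321.9, 228.0 and 300.1 on the first day and 355.3, 278.6, 315.6 and 294.2 on the second. In the mean of the runs CT 0 was the highest pool on both days, with an amplitude of 0.20 ± 0.10, peaking at CT 0.106 (adjusted p = 0.775, limma). That order held in the technical repeat (352.3 at 0 h and 327.0 at 24 h) and not in the first run, which was highest at 18 h (427.3, beside 354.4 at 0 h) and at 36 h (405.6, beside 386.1 at 24 h). Array b of 36 h read 782.1 beside 210.3 on array a. The amplitude was 0.37 without the arrays with high hybridisation controls, 0.31 in the technical repeat alone, 0.12 without the 12 h pool and 0.30 without the 36 h pool.

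Whether probe sets of the same gene told the same course was described over all 35 pairs, which came from 21 genes. Their median r over the 8 pools was -0.02, with a range of -0.62 to 0.78, and 15 of 35 were above 0. Fitted peaks lay within 3 h in 12 pairs (34.3%) and more than 6 h apart in 16 (45.7%). Over the 3221 same-gene pairs of the whole array the median r was 0.13, with peaks within 3 h in 31.0% and more than 6 h apart in 42.0%. With each run taken alone the median over the 35 pairs was 0.01 in the technical repeat and -0.02 in the first run. Most potassium channel pairs held a faint probe set: only 4 had both members above the level filter, with a median r of -0.11, while the 923 such pairs of the array had a median of 0.28. The 4 pairs were those of Kcna1 (0.75), Kcnh3 (0.09), Kcnj1 (-0.30) and Kcnd3 (-0.54). Pairs share pools and arrays, and a gene with 4 probe sets gives 6 pairs.

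**Figure D4:**
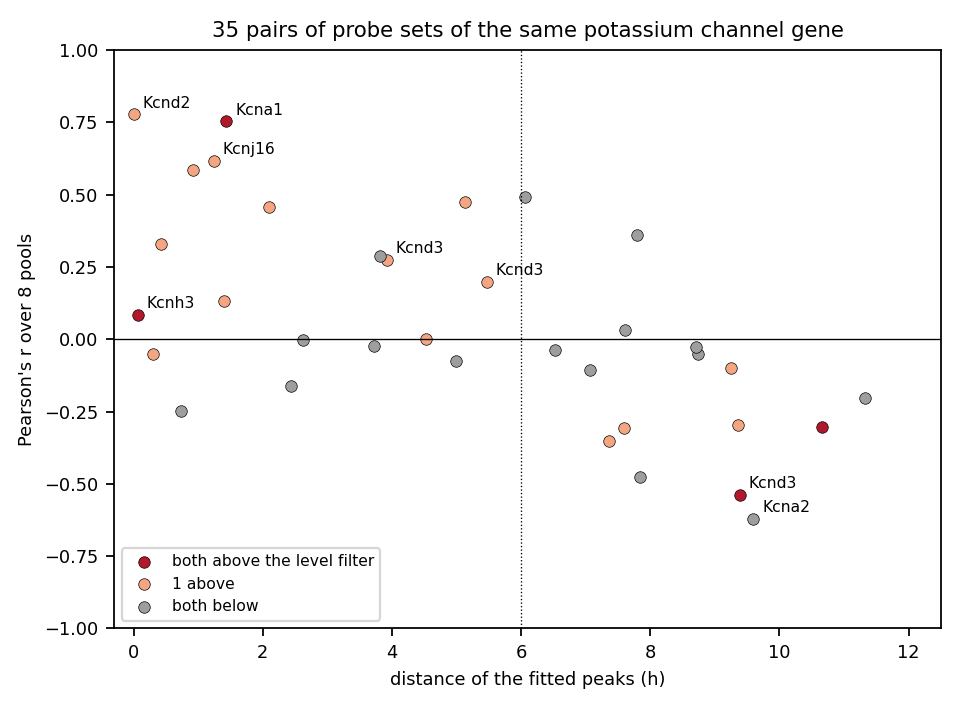
Pearson's r over the 8 pools (vertical) against the distance of the fitted peaks in hours (horizontal) for the 35 pairs of probe sets of the same potassium channel gene, coloured by how many of the pair lie above the level filter. Red points mark the 4 pairs with both above it, which run between -0.54 for Kcnd3 and 0.75 for Kcna1.

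The Kcnd2 pair had the highest r. Kcnd2 is the other A-type Kv4 gene, and its tested probe set S64320_at read 473.8, 364.6, 337.0 and 327.6 on the first day and 362.5, 368.6, 382.8 and 357.1 on the second. M59980_s_at, below the filter, read 173.9, 84.7, 64.4 and 73.4 on the first day and 95.4, 105.6, 60.9 and 60.4 on the second. Averaged over the runs, both were highest in the 0 h pool, as in the technical repeat (511.0 and 142.3). The first run was instead highest at 6 h for S64320_at (441.7, beside 439.4 at 0 h) and at 30 h for M59980_s_at (287.5, beside 212.5). Each probe set correlated between runs at r = -0.21. Between the probe sets r was 0.78 (exact permutation p = 0.0422, adjusted 0.739) with rho = 0.48 (exact permutation p = 0.243). Without the 2 pools farthest from the median r was 0.01, so the correlation rests on those pools, and in the runs alone it was 0.36 in the technical repeat and 0.03 in the first run. The Kcnh3 probe sets, for an ELK channel of the forebrain, had fitted peaks 0.065 h apart and an r of only 0.09.

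Other genes with probe sets that peaked more than 6 h apart began with Kcnab2. The tested rc_H33656_at read 1189, 1048, 1098 and 1245 on the first day and 994.4, 1028, 1184 and 981.1 on the second, and X76724_at read 85.3, 105.8, 57.0 and 109.6, then 101.4, 166.5, 131.0 and 155.3. The first varied little, and the second, below the filter, was lowest at 12 h in the mean of the runs, with r = -0.30 between them. That low value of X76724_at came from the technical repeat (17.5). The first run read 185.4 at 12 h, its highest of that day, on an array with high hybridisation controls. The runs of X76724_at correlated at r = -0.34. For Kcnj1, AF081365_s_at read 112.6, 177.6, 164.3 and 124.2, then 134.0, 113.9, 149.2 and 138.3, and AF081366_s_at, below the filter, read 65.2, 93.3, 64.9 and 103.2, then 20.4, 65.0, 138.4 and 12.1. The fitted peak of AF081365_s_at, at CT 10.8, lay 10.7 h from that of S78154_at of the same gene (r = -0.30). Its amplitude was 0.18 ± 0.11 (adjusted p = 0.801, limma). The fitted peak was at CT 14.0 in the technical repeat and CT 5.76 in the first run, with r = -0.47 between runs. AF081366_s_at reached the floor at 42 h. Kcnmb1 AF020712_at read 507.8, 450.3, 510.2 and 621.1, then 403.7, 506.4, 563.8 and 536.8, peaking at CT 15.2, and AB010963_s_at, below the filter, read 49.1, 98.8, 57.1 and 31.3, then 36.7, 42.7, 60.6 and 31.9, peaking at CT 7.62. Their r was -0.31.

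Kcnc2, a Kv3 channel of fast-spiking neurons, had 4 probe sets. The tested X62839mRNA_s_at read 640.5, 494.1, 470.4 and 448.3 on the first day and 550.0, 703.4, 599.6 and 521.9 on the second, peaking at CT 4.04. Its first-day values were highest at CT 0 and, in the mean of the runs, its second-day values at CT 6. The CT 6 value of the second day was high in the first run (786.2) and not in the technical repeat (629.4). There the highest pool was that of 36 h (1064). The runs of this probe set correlated at r = -0.51, the lowest of the 26 tested. The faint M84203_s_at read 25.0, 94.7, 25.2 and 19.4, then 42.5, 36.0, 20.5 and 36.8. M59313_at read 20.0, 22.8, 33.9 and 17.4, then 14.4, 16.4, 22.7 and 18.5. M59211_at read 38.2, 12.1, 34.5 and 12.1, then 12.1, 25.8, 12.1 and 22.4, and was thus at the floor in 4 pools. The 6 pairs of Kcnc2 probe sets had r between -0.35 and 0.36.

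Kcnma1, the pore of the BK channel whose current is larger by night in the mouse SCN, could be read only on 4 faint probe sets. U93052_s_at read 27.3, 37.7, 65.0 and 22.2 on the first day and 38.7, 23.6, 121.2 and 50.3 on the second, and U55995_at read 43.8, 50.3, 89.2 and 65.0, then 42.8, 40.7, 37.5 and 57.2. In the mean of the runs CT 12 was the highest pool of U93052_s_at on both days, with a fitted peak at CT 12.4. Its 12 h value joins 31.1 in the technical repeat, below 45.4 at 6 h, and 135.8 in the first run, on an array with high hybridisation controls. At 36 h the technical repeat read 172.3, array a 32.1 and array b, with high hybridisation controls, 226.4. On U55995_at the mean of the runs was highest at CT 12 on the first day only, with a fitted peak at CT 15.1. AF083341_s_at read 27.4, 41.6, 13.7 and 20.8, then 15.1, 15.5, 22.0 and 52.6, and U40603_at read 27.6, 12.1, 15.3 and 13.1, then 12.1, 12.6, 13.0 and 12.1. U40603_at stayed near the floor outside the 0 h pool. The 6 pairs had r between -0.20 and 0.03, and none of these probe sets was tested.

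The remaining genes with opposed probe sets had both below the filter. Kcna2, an axonal Kv1 subunit, read 14.8, 12.1, 12.1 and 12.1, then 19.2, 35.7, 12.1 and 22.8 on J04731_at, and 14.5, 15.4, 13.1 and 16.7, then 12.3, 13.2, 18.0 and 12.1 on X16003cds_s_at (r = -0.62, the lowest of the 35). Kcna6, another Kv1 subunit, read 20.8, 54.4, 70.4 and 24.5, then 30.0, 24.4, 45.0 and 14.9 on M27159cds_s_at, and 12.1, 12.1, 12.1 and 17.6, then 19.9, 18.1, 22.5 and 23.6 on X17621cds_at (r = -0.48). Several of these pools were at the floor, where values have no order. Kcnh8, an ELK channel, read 18.5, 16.6, 18.3 and 27.8, then 15.1, 13.5, 23.4 and 17.2 on AF061957_at, and 102.6, 116.3, 110.8 and 87.5, then 87.5, 112.2, 134.2 and 101.4 on AJ007632_s_at. Their r was -0.04. Kcnj3, a G protein-gated channel, read 18.1, 44.4, 19.1 and 25.2, then 34.9, 31.6, 34.3 and 33.2 on U09243_at, and 45.8, 37.0, 62.9 and 56.9, then 68.8, 42.8, 95.3 and 53.5 on U72410_s_at (r = -0.05). Kcnj4, a strong inward rectifier, read 25.8, 15.3, 22.9 and 34.2, then 25.2, 29.4, 36.4 and 27.9 on X83580cds_s_at, and 136.3, 74.5, 59.3 and 142.4, then 100.9, 175.0, 84.9 and 125.8 on X87635_at. Although their fitted peaks lay 6.06 h apart, the Kcnj4 pair had r = 0.49.

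The runs were compared next, to ask how far a second reading of the same pools gave the same values. Over the 8 pools, the r between technical repeat and first run had a median of 0.24 over the 26 tested potassium channel probe sets, with a range of -0.51 to 0.61, beside a median of 0.09 over all tested probe sets. It was above 0.5 for 5 of the 26 (19.2%, beside 14.7% of all tested), namely both Kcna1 probe sets, Kcnc1, Kcnd3 U92897_s_at and Kcnq3, and below 0 for 7. Without the 2 pools farthest from the median, r was -0.09 for Kcna1 M26161_at, 0.06 for Kcnc1 and 0.09 for Kcnq3, so that these 3 rest on those pools, while it was 0.50 for Kcna1 X12589cds_s_at. None of the 26 passed after adjustment over the family, with an adjusted exact permutation p of at least 0.840. The fitted peaks of the runs lay within 3 h for 12 of the 26 (46.2%), beside 32.7% of all tested probe sets. For Kcnd3 U92897_s_at the r was 0.52 (exact permutation p = 0.174), rho 0.52 (exact permutation p = 0.197) and r without 2 pools 0.62.

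**Figure D5:**
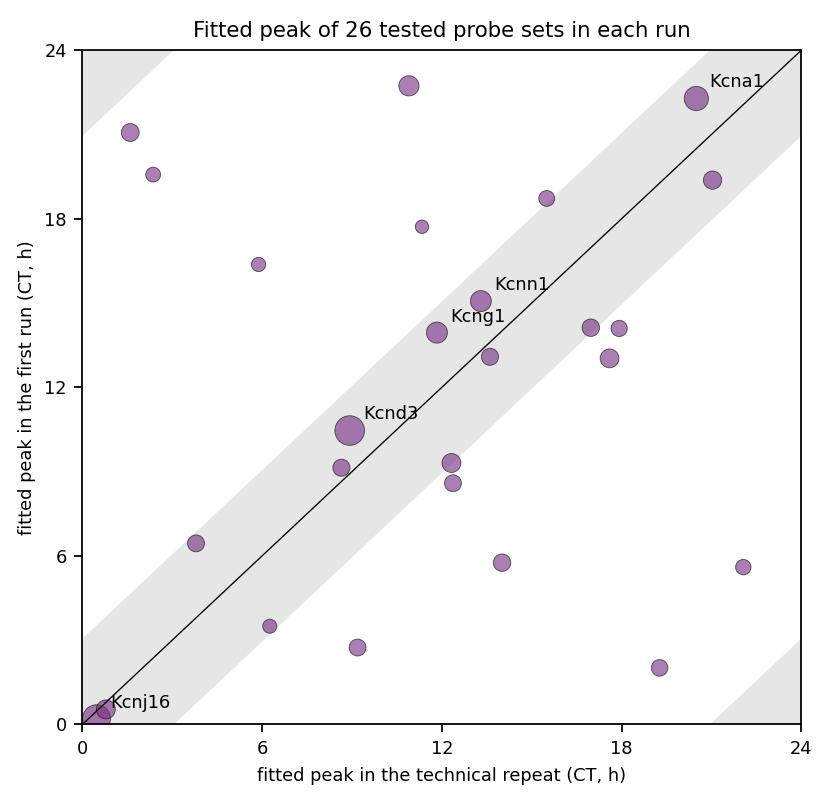
Fitted peak (CT, h) in the technical repeat (horizontal) and in the first run (vertical) for the 26 tested potassium channel probe sets, with larger points for larger amplitudes, a line of equality and a grey band of 3 h either way. Of the 26 points, 12 lie within the band, among them those of Kcnd3 U92897_s_at, Kcnj16, Kcng1 and Kcnn1.

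In mean level the runs differed for many probe sets. In limma's test over the 8 pool differences, 12 of the 26 potassium channel probe sets passed at an adjusted p of 0.05 (46.2%), beside 48.4% of all tested probe sets. Of these, 4 were higher in the technical repeat (20.9% of all tested probe sets were) and 8 were lower (27.5% of all). The median difference was -0.12 on the log2 scale over the 26 and -0.06 over all. Kcna4 X16002cds_s_at read 79.0, 120.5, 112.2, 90.3, 30.6, 79.1, 130.1 and 61.9 in the technical repeat and 402.0, 335.4, 200.6, 296.7, 197.5, 194.3, 305.9 and 240.1 in the first run. It was lower in the technical repeat in every pool, without overlap of the runs, by a log2 difference of -1.69 ± 0.19 (adjusted p = 7.2e-05, limma). Kcnh2 U75210_s_at, for the ERG channel that also repolarises the heart, read 518.8, 578.2, 408.7, 505.0, 376.2, 313.8, 441.9 and 450.0 in the technical repeat and 270.5, 315.4, 163.0, 207.2, 186.2, 254.0, 146.2 and 250.3 in the first run. The technical repeat was higher in every pool, by 1.02 ± 0.14 (adjusted p = 0.000192, limma). The other calls were lower in the technical repeat for Kcna1 M26161_at, Kcnj14, Kcnab2, both Kcnh3 probe sets, Kcng1 and Kcnj1 S78154_at, and higher for Kcnc2, Kcnd3 rc_AI230211_s_at and Kcnh1. The 4 genes with 2 tested probe sets had differences of the same sign on both: -0.77 and -0.63 for Kcnh3, -0.96 and -0.21 for Kcna1, -0.37 and -0.35 for Kcnj1, and 0.43 and 0.27 for Kcnd3. Both passed for Kcnh3 and 1 of the 2 for each of the others, and the difference between probe sets of a gene was not tested. This likeness of sign did not extend to all probe sets below the filter. Kcnd3 M74898cds_s_at was lower in the technical repeat in every pool (at 6 h 26.8, beside 195.5 in the first run). So was Kcnh2 Z96106_at (at 6 h 51.6, beside 185.0), opposite in sign to Kcnh2 U75210_s_at.

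The shape of the fitted curve did not pass between runs for any potassium channel probe set after adjustment, nor did any of the 4370 (0%). At an unadjusted p of 0.05, 1 of the 26 passed (3.85%), beside 3.11% of all tested probe sets. It was Kcna4 X16002cds_s_at (adjusted p = 0.999, limma), with an amplitude of 0.68, peaking at CT 10.9 in the technical repeat and an amplitude of 0.10 in the first run.

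The second day of constant darkness was set against the first with a day term beside the cosine and sine. No potassium channel probe set passed in limma's test, at an adjusted p of 0.05 (0% of all tested probe sets) or at an unadjusted p of 0.05 (3.96% of all tested probe sets, 173 of 4370). Day differences over the 26 ran between -0.48 and 0.31 on the log2 scale. The smallest p was that of Kcna4 X16002cds_s_at, given by pool above, at -0.48 ± 0.23 (adjusted p = 0.997, limma). Kcnd3 U92897_s_at followed at 0.31 ± 0.15 and then Kcnh2 U75210_s_at at -0.27 ± 0.17 (adjusted p = 0.997 for both, limma). These differences moved with single arrays and pools. That of Kcnd3 was 0.57 with arrays a left out, 0.05 with arrays b left out and 0.20 without the 36 h pool. That of Kcna4 was -0.19 without the arrays with high hybridisation controls, -0.31 without the 0 h pool and -0.28 without the 24 h pool. For Kcnh2 it was -0.53 without the arrays with high hybridisation controls, -0.12 without the 6 h pool, -0.15 without the 24 h pool and -0.41 without the 42 h pool. Without the arrays with high hybridisation controls, the 12 h and 18 h pools came from the technical repeat alone. The differences in level between runs (1.02 for Kcnh2 and -1.69 for Kcna4) thus enter those day differences. Kcnh2 read 264.7, 282.3, 254.2 and 335.6 on the second day and 374.6, 427.0, 258.1 and 323.5 on the first. The days overlapped, with CT 0 and CT 6 of the first day the highest pools.

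Partners of potassium channels with other symbols were read from a list of 31 genes, of which 19 were on the array and 13 were tested. None had an unadjusted p under 0.05 for the rhythm. The smallest p was 0.0676 in limma's test, for Abcc9, the sulfonylurea receptor of ATP-sensitive potassium channels, with an amplitude of 0.24, peaking at CT 12.8. Its channel partner Kcnj11 had an amplitude of 0.17 ± 0.12, peaking at CT 13.4 (adjusted p = 0.830, limma). As a check of the clock phase, the clock output gene Dbp peaked at CT 11.7 on its brighter probe set, with 479.4, 827.6, 1243 and 840.7 on the first day and 515.8, 898.9, 1175 and 779.3 on the second, so that CT 12 was the highest and CT 0 the lowest pool on both days.

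The 18 arrays had median intensities of 107.9 to 127.6 in the technical repeat and 136.5 to 152.3 in the first run. Their log2 values correlated pairwise at 0.877 to 0.972, and the pairs of arrays a and b at 0.931 (24 h) and 0.907 (36 h).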

How the data were processed

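Rat U34 GeneChip (array A) values of 18 arrays (8 RNA pools, 5 rats each per the labels) were used as deposited by the authors, as probe set intensity on a linear scale. The algorithm that made them is, like its scaling target, not given in the sources used here; a mean trimmed at both ends of 500.7 to 500.8 on all 18 arrays shows that the deposited values were scaled per array. Values under 12.1, the 10th percentile of the table, were set to that floor, and log2 values were averaged over arrays a and b and then over runs. The 59 control probe sets of 8799 were left out. The probe sets above the median level (4370) were fitted with limma 3.58.1 in R 4.3.3 (lmFit, eBayes, 5 residual and 5.13 prior degrees of freedom), with a cosine and sine of 24 h, a day term, or differences between runs, and p-values were adjusted by Benjamini-Hochberg over all of them. The amplitude is the log2 distance from fitted mean to fitted peak. The exact permutation test used all arrangements of the 8 pools (315 distinct ones) and is two-sided by construction, as are the correlation tests.

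Symbols came from the platform annotation, and all 82 gene identifiers were found in the RefSeq gene table, with 0 symbols changed. Of the 82 probe sets, 29 carry the suffix _s_at, for probes that can match several transcripts, and 11 of the 26 tested did, beside 15.1% of all tested probe sets. The probe sets given pool by pool are those of Kcnd3 and Kcnj16, the 8 with the smallest rhythm p, the 3 with the smallest day p, and those of genes whose probe sets peaked more than 6 h apart or correlated above 0.7. The members and gene lists were chosen with earlier results of these data known. Runs were paired by pool, since the labels call the second set technical replicates. The alternatives were other normalisations, level filters, floors, variance models, single runs, arrays left out, pools left out and the run as a block. The models were tested on simulated data.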

Additional observations from a re-analysis of the deposited data

Results flagged for a closer look

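The 24 h pool of Kcnd3 rc_AI230211_s_at was far from the other pools of its day: it read 1711, while the pools of 30, 36 and 42 h read 987.7, 1072 and 985.9. The distance to the nearest other pool, as a share of the range of the day, was beyond Dixon's 95% critical value for 4 values. This was the only such pool among 32 sets of 4 pools, each day of 16 tested probe sets, and chance marks about 1 in 20 sets.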

How the results depend on the processing

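No potassium channel probe set passed the adjusted threshold for the rhythm or the day under other normalisations, filters, floors, variance models, single runs, arrays a or b left out, the run as a replicate block and each pool left out, nor for the difference of the runs' curves under those of these that keep both runs apart (not single runs or the block). The 3 named day differences kept their sign. Over all tested probe sets, the count for the rhythm was 2 with the filter at the 75th percentile, 2 with limma's trend and robust setting, 1 in the technical repeat alone and 1 with the run as a replicate block (consensus correlation of a pool's runs 0.0254), in place of 0, and the count for the day was between 0 and 1 when a pool was left out, with 1 without the 0 h pool. The number of potassium channel probe sets that differed between runs was 23 with no level filter (4 higher and 19 lower in the technical repeat) and 4 with the filter at the 75th percentile, in place of 12, since 82 and 7 of them were tested in place of 26. The cause of the other changes was not tested. The amplitude of Kcnd3 U92897_s_at ran between 0.45 (technical repeat alone) and 1.10 (first run alone), with an adjusted p of 0.218 to 0.937, that of Kcnj16 rc_AA892312_at between 0.45 and 0.76 (0.289 to 0.984) and that of Kcna1 X12589cds_s_at between 0.21 and 0.74 (0.446 to 0.984), all in limma's test. Kcnn1 was above the filter in only 12 alternatives. The alternative without the 3 first-run arrays with high hybridisation controls was chosen after seeing the data, and it leaves 12 h and 18 h out of the run differences. It takes those pools from the technical repeat alone, so that differences in level between runs enter its amplitudes and day differences. Values near the floor of 12.1 carry no order, which limits 23 of the 82 probe sets.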
